A study of Mus musculus with 6 samples.

Results

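The collagen genes of mouse thyroid tumor cells are described here across tumors of a pair of genotypes. Members were taken by symbol: every row of the expression table whose name is Col, a number, the letter a and a number. That gave 44 genes of 35027, made up of 11 fibrillar, 9 basement membrane and 24 other collagen genes. Of these, 38 lay above the constant of 0.0001 that the authors had added to every value in at least 3 of the 6 libraries, and 34 had the mean of at least 10 scaled reads required for testing (9 fibrillar, 9 basement membrane and 16 other).

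RNA-seq was performed on cells sorted for the red fluorescent reporter Kate, about 20000 a library, from dissociated thyroid tumors. In the YAP group, 3 libraries came from tumors with doxycycline-induced, thyroid-specific YAPS127A, a mutant of the transcriptional coactivator YAP that escapes inhibition by the Hippo pathway. In the BrafYAP group, 3 libraries (replicates 1, 2 and 6) came from tumors that carried the same YAPS127A allele together with BrafV600E expressed from the endogenous locus, an activating mutant of the MAPK pathway kinase BRAF. All mice had received dox chow from 4 weeks of age, and in both groups the alleles were switched on by a thyroid-specific Cre acting on a Rosa26 rtTA and Kate cassette, on a mixed strain background, so no library represents thyroid cells without active YAP. RNA of a YAP library came from 3 pooled tumors and that of a BrafYAP library from 1, so pooling and genotype cannot be told apart. The primers that the study lists for its YAP allele are named for ColA1. Both groups carry that allele, and its part in the Col1a1 values was not tested.

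Collagens are extracellular matrix proteins that wind into a triple helix. Fibrillar collagens (types I, II, III, V, XI, XXIV and XXVII) assemble into the rope-like fibrils of the stroma, type IV chains form the sheet-like network of the basement membrane on which thyroid follicles rest, and the remaining types decorate fibrils, form beaded filaments or short-chain networks, or span the cell membrane. The chains pass through a shared biosynthetic line of hydroxylases, chaperones and propeptide proteases before they are crosslinked outside the cell. Fibroblasts and other mesenchymal cells are the usual source of fibrillar collagen, while epithelial and endothelial cells both contribute type IV chains.

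Type IV collagen genes lie head to head in pairs that are transcribed away from each other. On mm10, the start of Col4a4 on the minus strand of chromosome 1 (82586849) and that of Col4a3 on the plus strand (82586921) were 72 bases apart, those of Col4a6 (141474076) and Col4a5 (141475385) on the X chromosome were 1309 bases apart, and Col4a1 and Col4a2 on chromosome 8 overlapped by 22 bases. The start regions of these pairs are shown because the type IV genes held the 4 basement membrane chains that were lower in BrafYAP. The RefSeq windows on GRCm38.p6 run 5′ to 3′ from 250 bases before to 50 bases after the RefSeq start of the gene named, which for Col4a5 lies 34 bases downstream of the start given above, at chr1:82586800-82587099 (minus strand) for Col4a4, chrX:141474027-141474326 (minus strand) for Col4a6, chrX:141475169-141475468 (plus strand) for Col4a5 and chr8:11312777-11313076 (minus strand) for Col4a1. Capitals mark the bases between the GENCODE starts of the gene and its partner, and in Col4a1 the 22 bases that both transcripts hold.
Col4a4: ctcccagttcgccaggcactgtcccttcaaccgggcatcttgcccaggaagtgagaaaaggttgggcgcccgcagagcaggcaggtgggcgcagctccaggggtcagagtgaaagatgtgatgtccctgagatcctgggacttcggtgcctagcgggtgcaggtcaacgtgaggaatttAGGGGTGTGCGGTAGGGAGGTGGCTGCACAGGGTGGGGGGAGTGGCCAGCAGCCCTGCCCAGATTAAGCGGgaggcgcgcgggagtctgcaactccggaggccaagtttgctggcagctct
Col4a6: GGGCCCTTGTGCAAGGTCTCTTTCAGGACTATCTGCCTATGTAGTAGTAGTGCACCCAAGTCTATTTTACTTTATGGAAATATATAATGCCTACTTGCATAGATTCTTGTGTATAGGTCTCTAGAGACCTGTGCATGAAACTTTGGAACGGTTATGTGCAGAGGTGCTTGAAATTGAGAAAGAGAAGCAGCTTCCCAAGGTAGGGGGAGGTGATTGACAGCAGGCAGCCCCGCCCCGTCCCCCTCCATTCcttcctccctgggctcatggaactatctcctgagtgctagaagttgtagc
Col4a5: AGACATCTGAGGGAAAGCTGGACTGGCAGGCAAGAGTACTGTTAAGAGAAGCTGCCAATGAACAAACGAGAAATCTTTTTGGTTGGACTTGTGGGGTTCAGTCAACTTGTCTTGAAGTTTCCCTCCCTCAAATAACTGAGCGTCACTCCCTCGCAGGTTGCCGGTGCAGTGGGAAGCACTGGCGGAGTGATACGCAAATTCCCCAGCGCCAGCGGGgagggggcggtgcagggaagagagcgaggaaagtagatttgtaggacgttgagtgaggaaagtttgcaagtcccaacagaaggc
Col4a1: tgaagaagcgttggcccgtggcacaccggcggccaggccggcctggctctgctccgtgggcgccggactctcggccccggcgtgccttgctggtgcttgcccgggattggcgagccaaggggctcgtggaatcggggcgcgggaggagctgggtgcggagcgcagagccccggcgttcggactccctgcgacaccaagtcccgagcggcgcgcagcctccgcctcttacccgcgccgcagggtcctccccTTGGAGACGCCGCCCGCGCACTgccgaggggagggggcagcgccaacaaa

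Short motifs were searched on both strands of the RefSeq windows of all collagen genes tested that had one. The GC box GGGCGG, which zinc finger factors of the SP family bind, was found in 18 of 30 windows of 27 tested collagen genes (60%) and in 35.7% of all 32851 windows. GGAATG, the core bound by the TEAD factors through which YAP reaches DNA, was found in 5 of the 30 collagen windows (16.7%) against 14.7% of all windows, and the AP-1 motif TGANTCA in 1 (3.33%) against 7.81%. The TATA box TATAAA was in 3 (10%) against 13.6%. In the windows printed, Col4a6 held 1 GGAATG and 1 GC box, Col4a5 and Col4a1 held 1 GC box each, and Col4a4 held none of the motifs. Among the other genes described below, 1 of the Col18a1 windows held 2 GGAATG matches and Col16a1 held 2 GC boxes. A match is only a description of the letters, and windows for Col4a3, Col1a1, Col5a2, Col9a3, Col12a1, Col14a1 and Col26a1 were not used here.

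Values are given on a pair of scales. Scaled reads are the deposited values with the division by gene length undone, and they compare a gene between libraries. Exon-length TPM divide those reads by the exonic length of the gene, counted over all its annotated exons, and compare levels between genes. The libraries held an estimated 26.2 to 36.9 M reads. BrafYAP 6 stood apart, with a Pearson correlation of log2 values of 0.732 to 0.837 with the other libraries against 0.968 between the other BrafYAP libraries and 0.908 to 0.938 among YAP libraries. To describe the sorted population, summed exon-length TPM of 9 epithelial markers was 7605 to 23871 in YAP and 11421 to 25435 in BrafYAP. That of 13 thyroid follicular markers was 328 to 619 and 151 to 564, with Tshr, a gene of the mature follicle, at 0 in BrafYAP 1 and BrafYAP 2. The sum of 12 immune markers was above the epithelial sum in YAP 1 (42772 against 7605) and YAP 2 (30820 against 11027). That sum was uneven between its members. In YAP 1, Cd68 held 1000, Fcer1g 1056, Csf1r 365 and Adgre1 53.6, so most of it came from other listed genes. Such sums give no share of cells. In YAP 3 and the BrafYAP libraries the immune sum was below the epithelial sum. The purity of the sort was not tested.

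Most collagen transcripts had lower means in BrafYAP than in YAP tumor cells, among them the type IV chains Col4a3 to Col4a6, while Col16a1 and Col18a1 were higher. Of the 34 genes tested, 12 passed an unadjusted p of 0.05 (limma, two-sided), against 20.2% of all 16832 genes tested. Of these, 10 were lower and 2 were higher, where 10.5% of all genes were lower and 9.68% were higher. The 10 lower genes were Col4a3, Col4a4, Col4a5 and Col4a6 of the basement membrane, Col1a1, Col5a3 and Col24a1 of the fibrillar class, and Col10a1, Col14a1 and Col26a1 among the others, and the 2 higher genes were Col16a1 and Col18a1. None of the 34 passed a Benjamini-Hochberg adjusted p of 0.05 by limma, nor did any of the 16832 genes (0%), and the lowest adjusted p of a collagen gene was 0.0760. Under limma with voom none passed either, while 15 passed when libraries were weighted by quality, where 27.6% of all genes passed, and 1, Col26a1, passed without BrafYAP 6, where 142 of 16588 genes passed. The groups did not overlap for 14 collagen genes, against 28.7% of all genes. All 3 BrafYAP libraries lay below all 3 YAP libraries for 11 collagen genes, against 17.1% of all genes, and above them for 3, against 11.7%. The log2 difference (BrafYAP minus YAP) was below 0 for 24 of 34 collagen genes against 55.6% of all genes, with a median of -1.03 against -0.12 over all genes. By class the median was -1.69 for basement membrane, -1.30 for fibrillar and -0.16 for other collagen genes. The basement membrane median was the value of Col7a1 (± 1.58 SE), which had 0.888 scaled reads in BrafYAP 6. The lower count was 6 without YAP 1, without YAP 2 or without YAP 3, the higher count was 4 without YAP 1, 1 without YAP 2 and 4 without BrafYAP 6, and quantile normalization gave 10 lower and 4 higher. Fewer cells of a type and less RNA per cell cannot be told apart in these bulk samples.

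**Figure D1:**
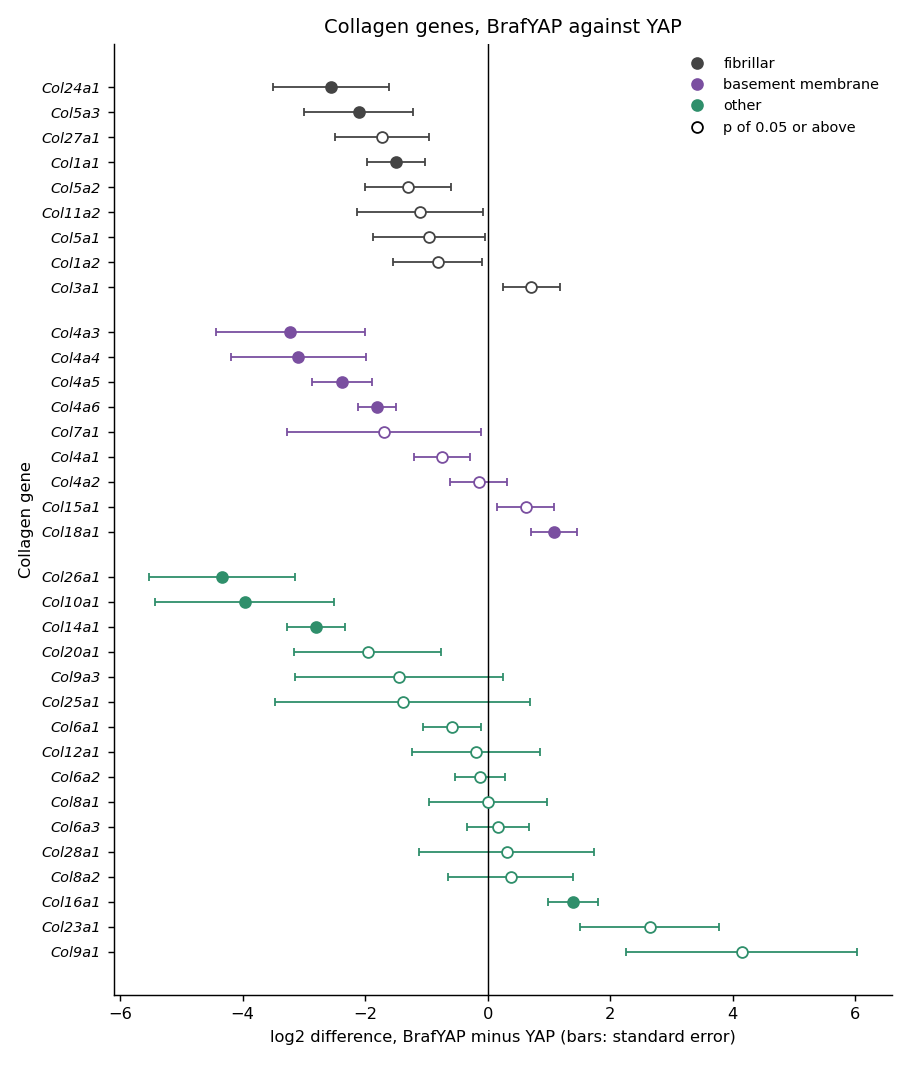
Log2 difference of each of the 34 tested collagen genes (BrafYAP minus YAP, log2(scaled reads + 1), horizontal axis) by class. Points are limma estimates from 3 against 3 libraries, bars are the standard error, and filled points have an unadjusted p under 0.05. The type IV genes Col4a3 to Col4a6 sit between -3.22 and -1.81, while Col16a1 and Col18a1 lie above 0.

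Markers of other cells differed from list to list in how the groups compared. Of 12 immune markers, 9 had a mean of at least 10 scaled reads. Summed exon-length TPM of the list was 13077 to 42772 in YAP and 3473 to 13468 in BrafYAP, with overlap between YAP 3 and BrafYAP 1. At an unadjusted p under 0.05, 7 of the 9 were lower (77.8%), against 10.5% of all genes. The sum of 12 pericyte and smooth muscle markers, 11 of them at that mean, was 620 to 1078 in YAP and 130 to 373 in BrafYAP, of which Acta2 alone held 809 in YAP 1 and 148 in BrafYAP 1. In that list 2 of 11 genes were lower at an unadjusted p under 0.05 (18.2%, against 10.5% of all genes). These were the contractile genes Acta2 (log2 difference -2.84) and Cnn1 (-3.73). In the same list 3 genes had a difference above 0, among them Des (1.62) and Kcnj8 (2.51). The sum of 17 fibroblast markers, 13 of them at that mean, overlapped at 470 to 667 in YAP and 199 to 1390 in BrafYAP. Of that sum Fbln2 alone held 1120 in BrafYAP 2 and 39.6 in BrafYAP 6. In this list 8 of 13 log2 differences were above 0. At an unadjusted p under 0.05, 2 genes were higher and 1 was lower, together 23.1%, near the 20.2% of all genes. Overlap was also found in the sum of endothelial and Schwann cell markers, where that of 11 endothelial markers at 12.2 to 41.6 and 10.1 to 129, and that of 6 Schwann cell markers at 24.3 to 40.8 and 29.7 to 35.7. None of these markers was at 0 in every library. The part of other cells in the collagen values was not tested.

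Summed over all members, collagen exon-length TPM was 1717, 1720 and 1320 in YAP 1, 2 and 3 and 1078, 1618 and 666 in BrafYAP 1, 2 and 6. The groups overlapped, with BrafYAP 6 lowest. The gene with the highest level was Col6a1, an alpha chain of the beaded filament collagen VI, with a mean of 332 exon-length TPM over the 6 libraries and 18.3 to 30.6% of the collagen total in each. It was followed by the basement membrane chain Col4a1 (154), the fibrillar chain Col5a2 (120), the multiplexin Col18a1 (99.7), Col1a2 (91.8), Col6a2 (84.2), Col4a2 (79.5) and Col4a3 (73.9). Of the usual stromal chains of types I and III, Col1a2 was within this order, while Col1a1 had a mean of 40.9 and Col3a1 of 21.9. The order depends on the exonic length used, which was 12426 bases for Col1a2 and 6563 for Col1a1. In mean scaled reads, Col1a2 (13003) was close to Col4a1 (13133) and Col5a2 (13158). Col6a1 was above Col4a1 in every library, and its share of the collagen total did not overlap that of Col4a1 (6.52 to 15.3%). The next neighbours overlapped, as Col4a1 ranged from 64.1 to 256 and Col5a2 from 20.8 to 216 exon-length TPM.

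The groups did not overlap in some of the smaller fractions of the collagen signal. Fibril-associated collagens made up 3.03, 3.12 and 2.80% of collagen exon-length TPM in YAP and 6.99, 7.61 and 7.48% in BrafYAP. The multiplexins, Col15a1 and Col18a1, held 2.41, 3.09 and 8.02% in YAP and 10.8, 8.96 and 21.5% in BrafYAP. Both fractions were above every YAP library in every BrafYAP library. The fibril-associated share was carried by different genes, since Col12a1 held 55.9 and 102 exon-length TPM in BrafYAP 1 and 2 but 4.63 in BrafYAP 6, where Col9a1 held 31.2. Without Col9a1 the share was 2.80 to 3.10% in YAP and 6.80, 7.58 and 2.92% in BrafYAP, with overlap. The type IV network held 28.95, 34.1 and 42.8% in YAP and 29.8, 19.8 and 19.4% in BrafYAP, and fibril-forming collagens 28.2, 27.5 and 22.2% and 25.5, 24.9 and 13.6%, both with overlap between the groups. Collagen VI held 23.5 to 34.6% in YAP and 24.3 to 36.6% in BrafYAP.

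**Figure D2:**
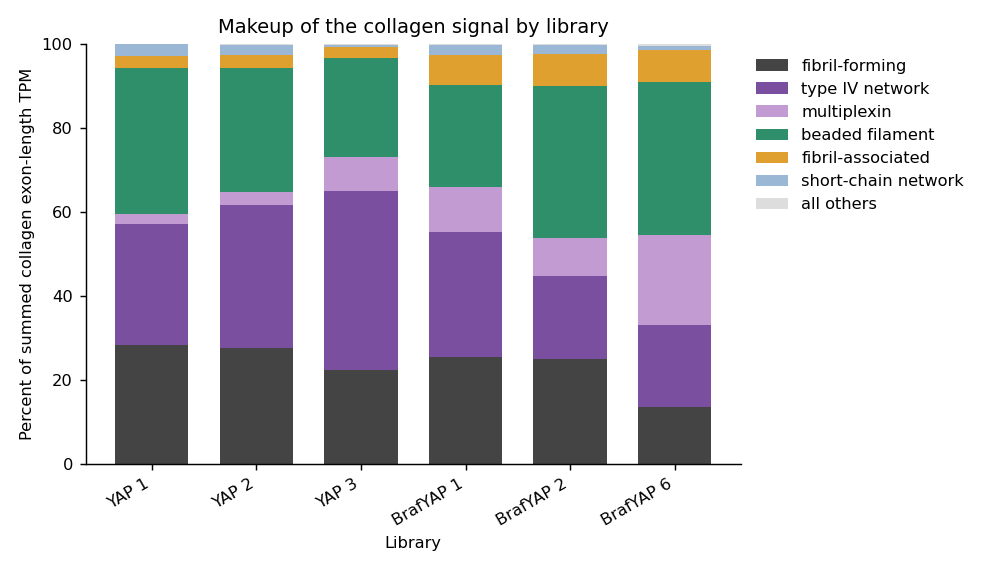
Percent of summed collagen exon-length TPM (vertical axis) held by each structural class in each of the 6 libraries (horizontal axis). Stacked bars show that the fibril-associated class holds 2.80 to 3.12% in YAP and 6.99 to 7.61% in BrafYAP, with Col9a1 as its main gene in BrafYAP 6, and that the multiplexin class is largest in BrafYAP 6 at 21.5%.

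Among basement membrane collagens, the specialised type IV chains were lower in BrafYAP and the ubiquitous chains overlapped. Col4a1 and Col4a2 encode the chains of nearly every basement membrane. Col4a3, Col4a4 and Col4a5 form the network of glomerular and alveolar basement membranes, and mutations in them cause Alport syndrome. Col4a5 also pairs with Col4a6 in the basement membranes of smooth muscle and some epithelia.

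For Col4a3, scaled reads were 18393, 11800 and 11596 in YAP 1, 2 and 3 and 4393, 4379 and 160 in BrafYAP 1, 2 and 6. Every BrafYAP library was below every YAP library, and BrafYAP 6 was far below its own group. The log2 difference was -3.22 ± 1.21 (SE; limma adjusted p = 0.206). It was -1.63 without BrafYAP 6, and the unadjusted p was above 0.05 without YAP 1 (-3.005), YAP 2 (-3.33) or YAP 3 (-3.34). Its partner Col4a4 had 6553, 3550 and 6223 scaled reads in YAP and 1791, 1502 and 86.1 in BrafYAP. The groups again did not overlap and BrafYAP 6 was again lowest, with a log2 difference of -3.09 ± 1.10 (SE; limma adjusted p = 0.186). That difference was -1.68 without BrafYAP 6, and lost its unadjusted p under 0.05 without YAP 1 (-2.93) and without YAP 3 (-2.97).

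The X-linked pair was lower with less spread. Col4a5 had 7444, 4898 and 5336 scaled reads in YAP and 1487, 1764 and 521 in BrafYAP, and the lowest YAP library exceeded the highest BrafYAP library with a wide gap. The log2 difference was -2.38 ± 0.49 (SE; limma adjusted p = 0.0903). For Col4a6, scaled reads were 3433, 2556 and 3329 in YAP and 1118, 918 and 660 in BrafYAP. The libraries of each group lay close together, and the log2 difference of -1.81 ± 0.31 (SE) had a limma adjusted p of 0.0760. Leaving out any single library kept the unadjusted p of both X-linked genes under 0.05, with log2 differences of -2.72 to -1.84 for Col4a5 and -1.98 to -1.60 for Col4a6.

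The ubiquitous chains did not separate the groups. Col4a1 had 9718, 22988 and 16636 scaled reads in YAP and 12310, 11751 and 5397 in BrafYAP (log2 difference -0.75 ± 0.46 SE, limma adjusted p = 0.389). Col4a2 had 3189, 9307 and 6862 in YAP and 6466, 6432 and 3622 in BrafYAP (-0.15 ± 0.46 SE, limma adjusted p = 0.880). In both genes YAP 2 was highest, and in Col4a2 the difference was above 0 without YAP 2 (0.19) and without BrafYAP 6 (0.13). The ratio of Col4a1 to Col4a2 exon-length TPM, chains found at a fixed ratio in the protomer, was 2.70, 2.19 and 2.15 in YAP and 1.69, 1.62 and 1.32 in BrafYAP. The starts of this pair overlap and a strand-aware counting was not stated, so reads from the shared bases cannot be told apart.

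As a share of all type IV exon-length TPM, Col4a3 to Col4a6 together made up 69.2, 36.4 and 47.6% in YAP and 26.99, 27.4 and 12.7% in BrafYAP. YAP 1 had the highest share, and the ranges of the groups did not overlap. Within pairs the ratio varied less: Col4a3 to Col4a4 was 1.98 to 3.54 in YAP and 1.98 to 3.11 in BrafYAP, and Col4a5 to Col4a6 1.90 to 2.57 and 0.938 to 2.28. The summed pericyte and smooth muscle markers were also lower in BrafYAP without overlap. Acta2 held most of that sum in YAP, at 809, 719 and 429 exon-length TPM in YAP 1, 2 and 3. Of the 11 tested, 2 were lower at an unadjusted p under 0.05 and 3 had a difference above 0. The immune sum overlapped, at 13077 in YAP 3 and 13468 in BrafYAP 1. The part of both cell types in the result was not tested.

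**Figure D3:**
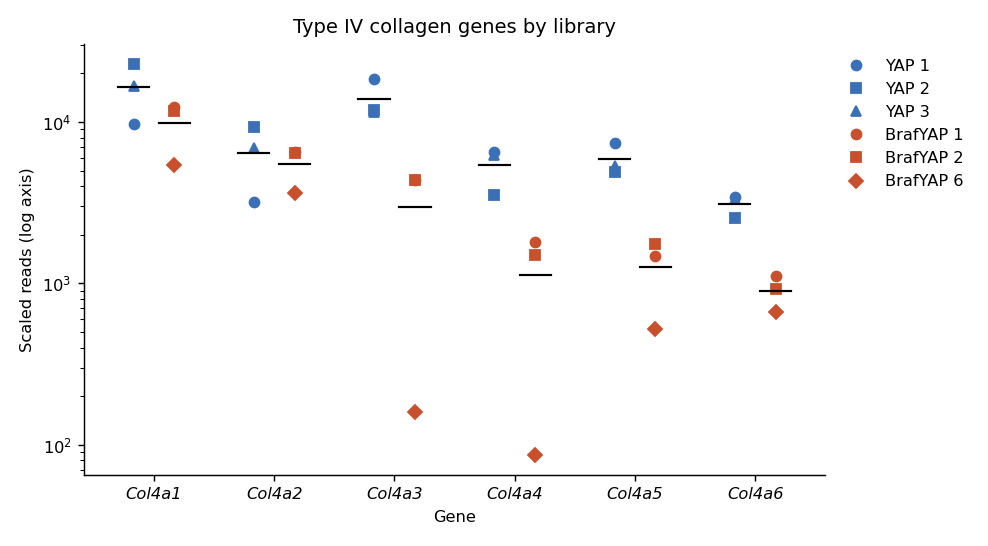
Scaled reads (vertical log axis) of the 6 type IV collagen genes (horizontal axis) in each library, with a bar at the group mean of 3 libraries. The groups are apart for Col4a3, Col4a4, Col4a5 and Col4a6 and interleave for Col4a1 and Col4a2, and BrafYAP 6 is lowest for Col4a3 at 160 and Col4a4 at 86.1 scaled reads.

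Of the remaining basement membrane members, Col18a1 was higher in BrafYAP and the others were low. Col18a1, whose protein carries heparan sulfate and releases endostatin, had 3314, 4408 and 8139 scaled reads in YAP and 9027, 11100 and 11176 in BrafYAP. The groups did not overlap, although YAP 3 came within reach of BrafYAP 1. The log2 difference was 1.08 ± 0.38 (SE; limma adjusted p = 0.181), and its unadjusted p was above 0.05 without YAP 1 (log2 difference 0.79), without YAP 2 (0.9995), without BrafYAP 2 (1.03) or with array weights (0.44). Col18a1 overlaps Slc19a1 in the annotation, and reads from the shared bases cannot be told apart. The related Col15a1 had 45.3 to 68.5 scaled reads in YAP and 53.4 to 123 in BrafYAP (log2 difference 0.62 ± 0.47 SE). Col7a1, which encodes the anchoring fibril of stratified epithelia, had 51.4 to 165 in YAP and 0.888 to 184 in BrafYAP. Its log2 difference was -1.69 ± 1.58 (SE; limma adjusted p = 0.570), with BrafYAP 6 at 0.888.

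In the fibrillar class, 3 of 9 genes tested (33.3%) were lower at an unadjusted p under 0.05, against 10.5% of all genes. A log2 difference below 0 was found for 8 of 9, against 55.6% of all genes. Col1a1 encodes the major chain of type I collagen and had 3981, 6513 and 3026 scaled reads in YAP and 1698, 2462 and 835 in BrafYAP. The lowest YAP library exceeded the highest BrafYAP library, with a log2 difference of -1.50 ± 0.48 (SE; limma adjusted p = 0.158) that was -1.19, with an unadjusted p above 0.05, without YAP 2. Col1a2 encodes the partner chain of the same protein and had 18137, 17701 and 9397 in YAP and 12855, 17457 and 2472 in BrafYAP. Here the groups overlapped, and the log2 difference of -0.81 ± 0.73 (SE; limma adjusted p = 0.551) was 0.052 without BrafYAP 6. The ratio of Col1a1 to Col1a2 exon-length TPM was below 1 in every library, at 0.416, 0.697 and 0.610 in YAP and 0.250, 0.267 and 0.639 in BrafYAP. Its size depends on the exonic lengths used, 6563 bases for Col1a1 and 12426 for Col1a2.

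Type V collagen sets the diameter of type I fibrils. Its chain Col5a2 had the highest mean exon-length TPM of the fibrillar class. It had 24113, 17750 and 10681 scaled reads in YAP and 9179, 14978 and 2249 in BrafYAP. The groups overlapped (log2 difference -1.30 ± 0.70 SE, limma adjusted p = 0.340), and the unadjusted p was under 0.05 without BrafYAP 2 (-1.87). Col5a3 had 1875, 1415 and 3631 in YAP and 824, 1290 and 113 in BrafYAP, with no overlap but with BrafYAP 2 close to YAP 2. Its log2 difference of -2.11 ± 0.89 (SE; limma adjusted p = 0.244) had an unadjusted p above 0.05 without YAP 1 (-2.20), YAP 2 (-2.40), YAP 3 (-1.72) or BrafYAP 6 (-1.04), and also with median-ratio rescaling (-1.98), without a trend in the variance and with the replicate block (-0.66). Col5a1 had 1974 to 8452 in YAP and 526 to 5828 in BrafYAP.

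The developmental fibrillar chains were near the bottom of the range. Col24a1, found in developing bone and cornea, had 48.3, 48.9 and 39.1 scaled reads in YAP and 11.1, 20.4 and 0.888 in BrafYAP. The groups did not overlap at this low depth, and the log2 difference was -2.55 ± 0.95 (SE; limma adjusted p = 0.202). It was -1.52 without BrafYAP 6, and the unadjusted p was above 0.05 without YAP 1 (-2.51), YAP 2 (-2.50) or YAP 3 (-2.66), or with the replicate block (-1.63). Col27a1, a cartilage fibril chain, had 158, 128 and 329 in YAP and 98.6, 106 and 16.9 in BrafYAP. Every BrafYAP library was below every YAP library, with a log2 difference of -1.72 ± 0.77 (SE; limma adjusted p = 0.264). The unadjusted p was under 0.05 without BrafYAP 1 (-2.12) and without BrafYAP 2 (-2.17). Col3a1, which builds the pliable fibrils of soft tissue, was the fibrillar gene with a log2 difference above 0 (0.71 ± 0.46 SE, limma adjusted p = 0.415), at 1014 to 2842 in YAP and 1849 to 3693 in BrafYAP.

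Fibrillar exon-length TPM summed to 484, 473 and 293 in YAP and 275, 404 and 90.4 in BrafYAP. BrafYAP 6 was lowest in the fibrillar sum. In BrafYAP 6 the sum of fibroblast markers was also lowest (199), although single markers were not, as Lum had its highest value there (659 scaled reads). Fbln2 alone made up most of that sum in every library except BrafYAP 6. It held 39.6 exon-length TPM in BrafYAP 6 and 357 to 1120 in the other libraries, so the sum and this gene shared their lowest and highest library. Among the YAP libraries the orders differed, as Fbln2 was lowest in YAP 2 (357), where the sum was highest (667). The part of fibroblasts in these values was not tested.

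**Figure D4:**
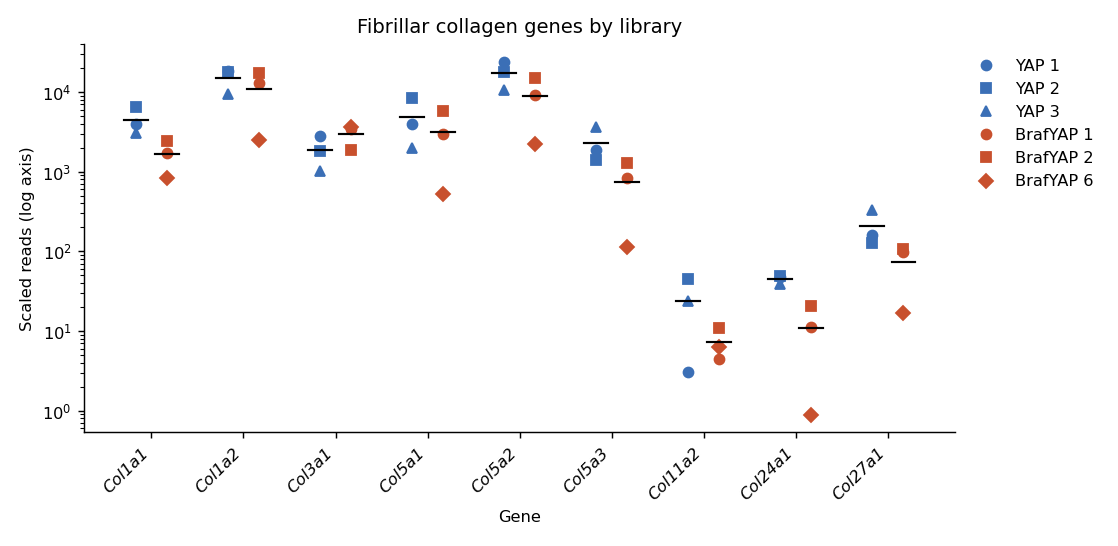
Scaled reads (vertical log axis) of the 9 tested fibrillar collagen genes (horizontal axis) in each library, with a bar at the group mean of 3 libraries. The groups are apart for Col1a1, Col5a3, Col24a1 and Col27a1 and overlap for the rest, and BrafYAP 6 is the lowest library for 7 of the 9 genes.

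The 16 other collagen genes tested held 3 that were lower and 1 that was higher at an unadjusted p under 0.05, together 25.0%, near the 20.2% of all genes. Collagen VI, which links cells to the surrounding matrix, did not separate the groups. Col6a1 had 26760, 20461 and 11632 scaled reads in YAP and 9924, 22072 and 8694 in BrafYAP (log2 difference -0.58 ± 0.47 SE, limma adjusted p = 0.510). Col6a2 had 6680, 11892 and 6196 in YAP and 5311, 11542 and 6246 in BrafYAP, with a log2 difference of -0.12 ± 0.41 (SE) that was 0.0052 when libraries were rescaled by median ratios. In both genes the spread within a group exceeded the distance between the groups. Col6a3, which completes the classical heterotrimer, was far below its partners at a mean of 1.53 exon-length TPM and had 123 to 235 scaled reads in YAP and 125 to 380 in BrafYAP.

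The fibril-associated collagens, which coat the surface of fibrils, held members in both directions. Col14a1, also called undulin, had 742, 744 and 317 scaled reads in YAP and 62.0, 119 and 67.5 in BrafYAP. All BrafYAP libraries were far below all YAP libraries, with a log2 difference of -2.80 ± 0.47 (SE; limma adjusted p = 0.0760), and it stayed between -3.21 and -2.60 with an unadjusted p under 0.05 when any library was left out. Col16a1 went the opposite way, with 289, 613 and 373 in YAP and 1225, 1392 and 702 in BrafYAP. The groups did not overlap, the log2 difference was 1.39 ± 0.41 (SE; limma adjusted p = 0.141), and it was 1.15 to 1.69 with an unadjusted p under 0.05 when any library was left out. Col12a1 had the highest level of the fibril-associated genes, with 6642, 6544 and 4430 in YAP and 9556, 16993 and 796 in BrafYAP. BrafYAP 1 and 2 were above and BrafYAP 6 was below every YAP library. The log2 difference of -0.19 ± 1.04 (SE; limma adjusted p = 0.934) was 1.14 without BrafYAP 6, with an unadjusted p under 0.05.

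Col9a1, Col9a3 and Col10a1 were each high in a single library. Col9a1, a chain of the cartilage collagen IX, had 59.6, 18.3 and 0 scaled reads in YAP and 124, 28.3 and 1787 in BrafYAP (log2 difference 4.15 ± 1.88 SE, limma adjusted p = 0.270), so its mean rested on BrafYAP 6. Col9a3 was also highest in BrafYAP 6, at 157 against 0 to 35.0 in the other libraries. Col10a1, the network collagen of hypertrophic cartilage, had 554, 30.6 and 38.1 in YAP and 17.7, 8.63 and 0 in BrafYAP. YAP 1 stood far above the rest, and the log2 difference was -3.96 ± 1.46 (SE; limma adjusted p = 0.199), or -2.64 without YAP 1 and -2.71 without BrafYAP 6, both with an unadjusted p above 0.05. The same held with voom (-4.43), with exonic-length TPM (-1.68) and among genes with a mean of at least 100 scaled reads (-3.96). Col10a1 lies inside Nt5dc1 in the annotation. Of 9 chondrocyte markers, 5 had a mean of at least 10 scaled reads and the matrix genes Matn1 and Hapln1 were at 0 in every library. The summed exon-length TPM of the markers was 18.8 to 48.4 in YAP and 40.6 to 81.3 in BrafYAP, highest in BrafYAP 6. Its members differed in direction, such as Comp (log2 difference 2.75) and Cnmd (-5.56). Of the 5 tested, 2 were higher and 2 lower at an unadjusted p under 0.05, together 80.0% against 20.2% of all genes.

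The low collagens held a pair with groups that did not overlap. Col26a1, first described in testis and ovary, had 43.2, 168 and 81.4 scaled reads in YAP and 2.22, 0 and 22.2 in BrafYAP. All YAP libraries were above all BrafYAP libraries, with a log2 difference of -4.33 ± 1.19 (SE; limma adjusted p = 0.126) that was -5.57 to -3.30 when any library was left out and kept an unadjusted p under 0.05. The size of that difference depends on the pseudocount of 1, and was -2.59 with a pseudocount of 10. Col23a1, a transmembrane collagen, had 7.196, 1.22 and 0 in YAP and 42.1, 8.63 and 9.77 in BrafYAP (log2 difference 2.65 ± 1.13 SE, limma adjusted p = 0.249), and the unadjusted p was under 0.05 without YAP 1 (3.47) and without BrafYAP 6 (2.95). BrafYAP 2 (8.63) was close to YAP 1 (7.196), and each rested on few reads. The short-chain network genes Col8a1 and Col8a2, made by endothelial and smooth muscle cells among others, had log2 differences of 0.011 ± 0.97 and 0.38 ± 1.02 (SE). Col20a1, Col25a1 and Col28a1 had no more than 35.0, 230 and 31.9 scaled reads in any library.

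The 10 collagen genes that were not tested comprised 6 found above 0.0001 in fewer than 3 libraries and 4 with a mean under 10 scaled reads. The 6 were Col2a1, the cartilage fibril chain (14.4 and 25.9 scaled reads in BrafYAP 1 and 2, and 0 elsewhere), Col6a5, Col6a6, Col13a1, Col19a1 and Col22a1. The 4 were Col6a4, Col9a2, Col11a1 and Col17a1, the hemidesmosome collagen of stratified epithelia. No fold change is given for them.

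Genes that modify and export collagen chains did not move together. Of 32 listed biosynthesis genes, 30 were tested, 3 were higher and 4 were lower at an unadjusted p under 0.05, together 23.3%, near the 20.2% of all genes, and the median log2 difference was -0.21. The gene with the lowest adjusted p of the list was P3h4, a partner of the lysyl hydroxylase complex, with 236, 391 and 260 scaled reads in YAP and 1128, 1899 and 1450 in BrafYAP (log2 difference 2.33 ± 0.34 SE, limma adjusted p = 0.0632). The groups were far apart in every library. The tolloid protease Tll1, which removes C-propeptides, had 12.3, 7.34 and 0 in YAP and 69.8, 76.9 and 122 in BrafYAP (4.19 ± 1.01 SE), and the N-propeptide protease Adamts3 2.06, 13.5 and 8.24 and 15.5, 35.3 and 71.9 (2.25 ± 0.88 SE). Both were low in number of reads but did not overlap between the groups.

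The lower biosynthesis genes act on lysine and proline residues. Plod1, a lysyl hydroxylase, had 9532, 10414 and 7621 scaled reads in YAP and 4707, 4450 and 2845 in BrafYAP (log2 difference -1.22 ± 0.31 SE). P4ha1, a catalytic subunit of prolyl 4-hydroxylase, had 9191, 9189 and 9758 and 6629, 5034 and 1391 (-1.38 ± 0.57 SE). The galactosyltransferases Colgalt1 (2546, 1729 and 2501 in YAP and 1532, 1192 and 756 in BrafYAP) and Colgalt2 (-3.03 ± 1.04 SE, at no more than 21.6 scaled reads) completed the 4. Of the other subunits and isoenzymes, P4ha2 had a log2 difference of 0.29, P4ha3 of -2.52, P4hb of 1.10, Plod2 of -0.08 and Plod3 of 0.44, with overlap between the groups in each. The collagen chaperone Serpinh1 had 8652, 36312 and 25795 in YAP and 9033, 16534 and 3188 in BrafYAP, with overlap. The crosslinking enzymes Lox and Loxl2 had 2455 to 3996 and 5503 to 10756 in YAP and 90.6 to 5777 and 135 to 7913 in BrafYAP, with BrafYAP 6 lowest in both.

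**Figure D5:**
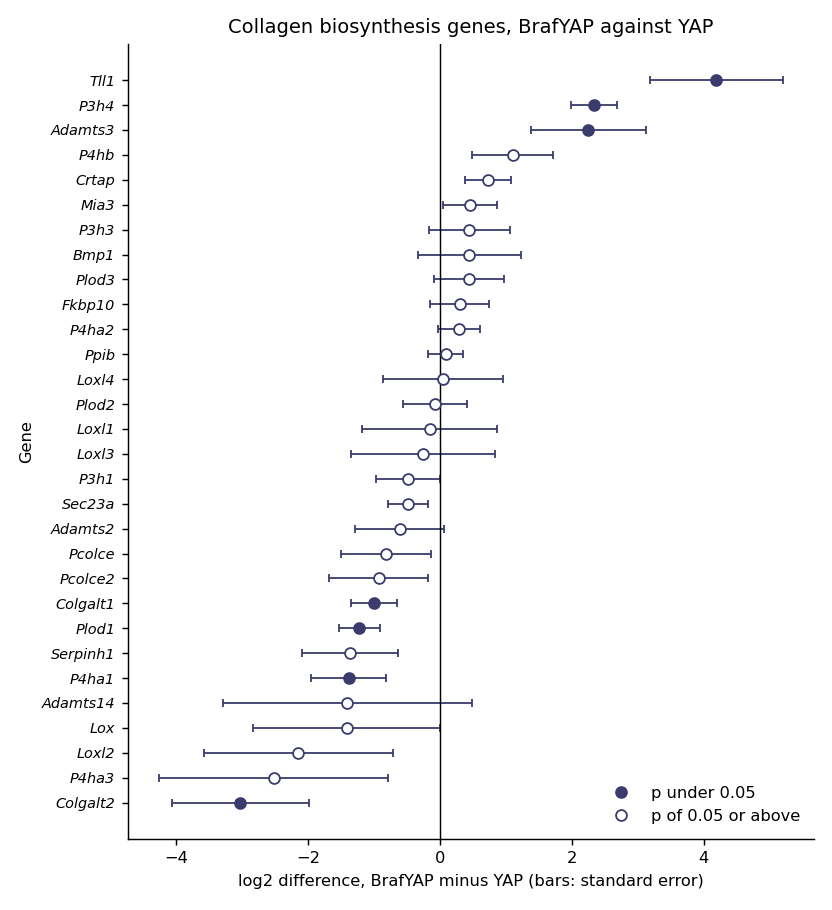
Log2 difference (BrafYAP minus YAP, log2(scaled reads + 1), horizontal axis) of the 30 tested collagen biosynthesis genes. Points are limma estimates from 3 against 3 libraries, bars are the standard error and filled points have an unadjusted p under 0.05. P3h4 at 2.33 is the gene with the shortest bar among those above 1, and the 4 filled points below 0 are Plod1, P4ha1, Colgalt1 and Colgalt2.

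Of 11 listed collagen receptors, 10 were tested. At an unadjusted p under 0.05, 1, the inhibitory leukocyte receptor Lair1, was lower (10.0%, near the 10.5% of all genes). In the other direction there were 0, against 9.68% of all genes. Lair1 had 1912, 2385 and 523 scaled reads in YAP and 422, 168 and 103 in BrafYAP (log2 difference -2.78 ± 0.72 SE). All 9 immune markers tested also had a log2 difference below 0, against 55.6% of all genes. The receptor tyrosine kinase Ddr1 had a log2 difference of 0.06 ± 0.56 (SE). Of 15 fibril-binding matrix genes, 14 were tested, 2 were higher and 2 were lower, together 28.6% against the 20.2% of all genes. The small leucine-rich proteoglycans decorin (Dcn, 1.94 ± 0.67 SE) and lumican (Lum, 2.48 ± 0.83 SE), which space collagen fibrils, were higher, and the collagen-binding glycoprotein Sparc (-1.57 ± 0.62 SE) and Prelp (-2.49 ± 0.91 SE), which tethers collagen to basement membrane, were lower. Dcn had 2415, 888 and 377 scaled reads in YAP and 2653, 5801 and 2955 in BrafYAP. Sparc had 243734, 200739 and 126276 in YAP and 96833, 104989 and 23452 in BrafYAP. For Dcn the gap between YAP 1 and BrafYAP 1 was small, while for Sparc every BrafYAP library lay below every YAP library.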

How the data were processed

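RNA-seq libraries from Kate-positive cells of 6 mouse thyroid tumor samples were grouped by their titles. RNA was amplified for 12 cycles and libraries for a further 8. Reads were demultiplexed with bcl2fastq 2.2 and aligned by the authors with STAR 2.6.1d to mm10, then quantified by the Partek E/M model on an Ensembl annotation, and the authors deposited one table of TPM with 0.0001 added to each value. 0 columns of it lacked a sample. The paper's results name a later start of dox than its methods and the labels, and its methods have no pooling of tumors. The labels were kept.

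Low values (under 200 reads) multiplied by genomic span, introns included, came within 0.05 of whole multiples of one step per library for 71.4 to 75.7% of values, against 21.3 to 24.0% for the exonic length. The deposited TPM were therefore taken as divided by the span. For collagen genes 105 of 105 such values were whole. Scaled reads are (value - 0.0001) × span from GENCODE M21 times one constant, which keeps the scaling between libraries set by the authors. Exon-length TPM use the exonic length instead. Symbols matched 34709 of 35027 genes, 34640 of them at one locus. A count model does not apply to TPM and was not used for the main test. Voom on the estimated reads was run as an alternative setting. With PCR reads the estimated reads cover counting error only. Genes overlapping on either strand can share reads.

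The difference BrafYAP minus YAP on log2(scaled reads + 1) was tested two-sided with limma 3.58.1 under R 4.3.3 (lmFit, eBayes with a trend). The test took in 16832 genes whose mean reached 10 scaled reads, with Benjamini-Hochberg adjustment over all of them. The p-values measure the spread between 3 libraries a group. The script was tested on simulated data. Values in every library are given for collagen genes with an unadjusted p under 0.05 or groups without overlap, and for the 3 with the highest mean exon-length TPM in each class. Of the biosynthesis, receptor and fibril-binding lists, genes with an unadjusted p under 0.05 are named. A few members chosen after their values were seen are named too (crosslinking enzymes, Serpinh1, hydroxylase isoenzymes, Ddr1, Col3a1, Col9a1, Col9a3). Cell type markers are given as sums and counts, with only some members named. The members and lists were chosen with earlier results of these data known. Replicate numbers 1 and 2 occur in both groups, but their deviations from group means correlated at -0.03 and 0.05, so no pairing entered the comparison. A listed thyroid follicular marker is not reported here and was left out of its sum.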

Additional observations from a re-analysis of the deposited data

How the results depend on the processing

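The number of libraries, 3 a group, limits the precision, and differences of genes with few reads depend on the pseudocount (with 10 in place of 1, Col10a1 was at -2.58 and Col24a1 at -1.53). The counts of collagen genes at an unadjusted p under 0.05 (10 lower, 2 higher) were within 1.5 times under a pseudocount of 10, limma without a trend, voom and median-ratio rescaling (which shifts the median of all genes from -0.12 to 0.01 and that of collagen genes from -1.03 to -0.91), with 3 higher under that rescaling, without a trend and without a filter on the mean. On log2(deposited TPM + 1), where only 12 collagen genes were tested, 3 were lower and 1 was higher, and 1 biosynthesis gene was higher. With exonic-length TPM 1 biosynthesis gene was higher and 2 were lower, and at a mean of at least 100 scaled reads 1 was higher. Quantile normalization gave 4 higher collagen genes. Array weights gave 7 higher, 14 lower and 15 past the adjusted threshold, with 10 biosynthesis genes higher, where 21.6% of all genes were lower, 19.5% higher and 27.6% past the adjusted threshold. The cause of these shifts was not tested. Leaving out 1 library gave 6 to 12 lower and 1 to 4 higher collagen genes, 0 to 1 past the adjusted threshold, and 2 to 6 higher and 1 to 4 lower biosynthesis genes.

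The replicate block over numbers 1 and 2, which share only a number, gave 11 lower and 3 higher collagen genes. It also gave 2 lower biosynthesis genes. Of the 6 libraries fitted, YAP 3 and BrafYAP 6 each formed a block of their own. The differences of this fit therefore rested on replicates 1 and 2 of each group. The log2 difference changed sign for Col12a1 (0.17 on deposited TPM, 1.14 with array weights, 0.95 with the replicate block, -1.07 to 1.14 without 1 library), Col1a2 (0.35 with array weights, -1.36 to 0.052 without 1 library), Col4a2 (0.24 with the replicate block, -0.59 to 0.19 without 1 library), Col6a1 (0.021 with array weights) and Col6a2 (0.0052 with median ratios, 0.099 with array weights, -0.46 to 0.17 without 1 library). Of these 5 genes, only Col12a1 had an unadjusted p under 0.05 in such a reversal, with array weights and without BrafYAP 6.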
